A study of Mus musculus with 12 samples.

Results

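Prl2c2, Prl2c3 and Prl2c5 are the proliferin genes of the mouse, and they were taken as the rows of the deposited gene table that carry these 3 symbols, 3 of 55401 genes. They were selected on their measured levels in these same libraries, so their levels and differences are given as a description, with no test. The gene lists compared further on were also chosen with earlier results of these data known. Their shares of called genes, set beside those of all genes, are thus a description too. The cells were mesenchymal stem cells (MSCs) from the bone marrow of C57BL/6 mice, bought as a primary culture, and their mRNA was sequenced in 12 libraries. The 4 groups of 3 libraries were MSCs left untreated, MSCs given TGF-β1 at 5 ng/mL, MSCs given TGF-β1 with the culture supernatant of monocytic myeloid-derived suppressor cells (M-MDSCs), and MSCs given TGF-β1 with the supernatant of granulocytic ones (G-MDSCs), called M-MDSC sup and G-MDSC sup below. The last 3 groups thus all received TGF-β1, which turns MSCs into matrix-producing myofibroblasts, and no group received a supernatant without it. The labels do not say whether the 3 libraries of a group came from separate cultures, so the p-values measure the spread between these libraries, which may be technical.

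Proliferins are secreted glycoprotein hormones of the prolactin family. In the mouse they are made in quantity by trophoblast giant cells of the placenta, they promote the migration of endothelial cells and the growth of vessels, and they bind the cation-independent mannose 6-phosphate receptor, the product of Igf2r. They were also found as transcripts that serum and growth factors induce in cultured mouse fibroblasts, and their promoters are a textbook case of joint control by AP-1 factors and the glucocorticoid receptor. In the annotation deposited with the table, the 3 genes shared 11 Gene Ontology terms, among them hormone activity, prolactin receptor binding and positive regulation of cell population proliferation, and 9 further terms, sprouting angiogenesis among them, were on Prl2c2 alone.

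The 3 genes lie on chromosome 13 of GRCm38. Prl2c3 (ENSMUSG00000056457) lies at chr13:12790816-12800079 on the minus strand, Prl2c2 (ENSMUSG00000079092) at chr13:12996125-13005383 on the minus strand, and Prl2c5 (ENSMUSG00000055360) at chr13:13182715-13191923 on the plus strand. Each has 5 exons in its main transcript and overlaps no other annotated gene. The genes are 196046 and 177332 bp apart, and of the 11 other genes between the outer members, 9 had no count in any library and the highest had 15.

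The members are so alike that reads can be shared among them, and only reads over positions that differ can be told apart. Over the whole transcripts, Prl2c2 and Prl2c3 had 4 mismatches and 15 gap positions. The coding sequences of Prl2c2 and Prl2c3, both of 675 bases, were 99.6% identical, with 3 substitutions, T14C, C200A and T319G, written as the Prl2c2 base, the position from the A of the start codon, and the Prl2c3 base. Prl2c5, with 669 coding bases, was 96.1% identical to Prl2c2 and 96.0% to Prl2c3. The coding stretches around the 3 positions, read 5′ to 3′ from the GENCODE M21 transcripts, are shown with the position in capitals. The 5′ end of the coding sequence, with position 14:
Prl2c2: atgctcccttcttTgattcaaccatgctc
Prl2c3: atgctcccttcttCgattcaaccatgctc
Prl2c5: atgctcccttcttTgattcaaccatgctc
Coding bases 185 to 215, with position 200:
Prl2c2: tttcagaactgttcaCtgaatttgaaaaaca
Prl2c3: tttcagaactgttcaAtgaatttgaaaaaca
Prl2c5: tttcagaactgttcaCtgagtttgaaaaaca
Coding bases 304 to 334, with position 319:
Prl2c2: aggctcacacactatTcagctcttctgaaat
Prl2c3: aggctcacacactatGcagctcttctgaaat
Prl2c5: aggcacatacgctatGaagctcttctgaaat
Of the 693 stretches of 150 bases in the Prl2c2 transcript, 353 (50.9%) occur unchanged in another member, and so do 353 of 708 (49.9%) in Prl2c3 and 0 of 695 in Prl2c5. How the counting treated a read that fits several places is not given in the sources used here. The split of reads between Prl2c2 and Prl2c3 is therefore uncertain, and the sum of the 3 genes is the main value below.

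The pseudogene Gm7040 is the closest other transcript, 98.2% identical to Prl2c3 over 443 bases. It had 178, 0 and 184 counts in the untreated libraries, 0, 0 and 18 after TGF-β1, 0, 32 and 51 with M-MDSC sup and 44, 0 and 0 with G-MDSC sup. These counts swing from 0 to their highest within a group, and they came to at most 2.99% of the summed counts of the 3 members in the same library. The next closest, Prl2c1, was 93.6% identical to Prl2c5 over 672 bases and had no count in any library.

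The RefSeq promoters in reach, those of Prl2c3 and Prl2c5, are shown as the 250 bases before the RefSeq gene start on GRCm38.p6. They read 5′ to 3′ on the strand of the gene. No promoter of Prl2c2, the member that made up most of the sum, was in reach. A link of these promoters to the growth factor and AP-1 results given further on was not tested. Capitals mark the AP-1 heptamer TGANTCA and the TATA box letters TATATAA. The Prl2c3 window is chr13:12800080-12800329 on the minus strand and the Prl2c5 window is chr13:13182466-13182715 on the plus strand. The RefSeq start of Prl2c5, from which its distances are counted, is thus 1 base after the start of the gene given above.
Prl2c3: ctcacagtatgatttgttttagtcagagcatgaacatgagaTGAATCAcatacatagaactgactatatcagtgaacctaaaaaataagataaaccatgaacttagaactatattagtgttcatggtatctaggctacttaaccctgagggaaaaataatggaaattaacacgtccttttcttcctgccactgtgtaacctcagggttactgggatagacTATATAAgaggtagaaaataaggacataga
Prl2c5: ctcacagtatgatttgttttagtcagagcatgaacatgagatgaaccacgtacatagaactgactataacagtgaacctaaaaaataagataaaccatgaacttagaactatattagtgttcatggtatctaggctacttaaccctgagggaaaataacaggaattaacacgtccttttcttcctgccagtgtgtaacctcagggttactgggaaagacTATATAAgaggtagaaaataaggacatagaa
The windows were 96.0% identical, with 8 substitutions and 2 gap positions in 251 aligned. Searched on both strands, TGANTCA was found in the Prl2c3 window, starting 209 bases before the gene start, and not in that of Prl2c5, where the substitution T46C, counted from the 5′ end of the window with the Prl2c3 base first, falls inside it. These letters occur in 6.75% of 32851 RefSeq mouse promoters of the same table. TATATAA occurs in both windows, 30 and 31 bases before the start, and in 3.04% of all promoters. The glucocorticoid receptor hexamer AGAACA, found in 16.1% of all promoters, and the SMAD box CAGACA, found in 17.1%, were in neither window. A match is a run of letters, and no binding was measured.

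The libraries held 73977669 to 84565450 counts, of which 868 to 9277 came from the 3 members. Levels are given in FPKM, fragment counts scaled by transcript length and library size, as the authors calculated them. Differences are log2 fold changes with their standard errors from an edgeR fit to the counts of all 12 libraries, which took in the 12016 genes that reached an FPKM of 1 in 3 or more libraries. Prl2c2 and Prl2c3 passed this filter, and Prl2c5 did not. As to the identity of the cells, 3 surface markers used for MSCs, Itgb1, Cd44 and Ly6a, were expressed, while Kit and Pecam1, which MSCs lack, reached at most 0.0117 and 0.218 FPKM. Of 12 trophoblast markers, 8 were at 0 in all libraries, Tpbpa, Gcm1, Hand1, Elf5, Cdx2, Tfap2c, Psg21 and Ctsq, and the summed level of the 12 was 0.199 to 0.588 FPKM untreated, 0.0772 to 0.365 after TGF-β1, 0.370 to 0.430 with M-MDSC sup and 0.268 to 0.548 with G-MDSC sup. The M-MDSC sup libraries were thus all above those of TGF-β1 alone, and the other groups overlapped with TGF-β1 alone. The 5 endothelial markers summed to 0.333 to 0.403 FPKM untreated, 0.347 to 0.395 after TGF-β1, 0.330 to 0.514 with M-MDSC sup and 0.445 to 0.618 with G-MDSC sup, where all libraries were above those of TGF-β1 alone and untreated. No marker of either list reached 1 FPKM, and their part in the proliferin differences was not tested.

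Proliferin mRNA was abundant in untreated MSCs and about 10-fold lower after TGF-β1. Prl2c2 was at 77.6, 72.1 and 73.8 FPKM in the untreated libraries and at 5.56, 6.28 and 7.39 FPKM after TGF-β1. The untreated libraries were thus all above the TGF-β1 libraries, with no overlap, and lay close together. Prl2c2 was the gene with rank 660 by mean FPKM in untreated MSCs and rank 5894 after TGF-β1. Prl2c3 was at 10.4, 13.7 and 16.9 FPKM in the untreated libraries and at 2.96, 1.93 and 2.51 FPKM after TGF-β1. Again no library of a group reached the range of the other, although the untreated values spread more widely than those of Prl2c2.

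**Figure D1:**
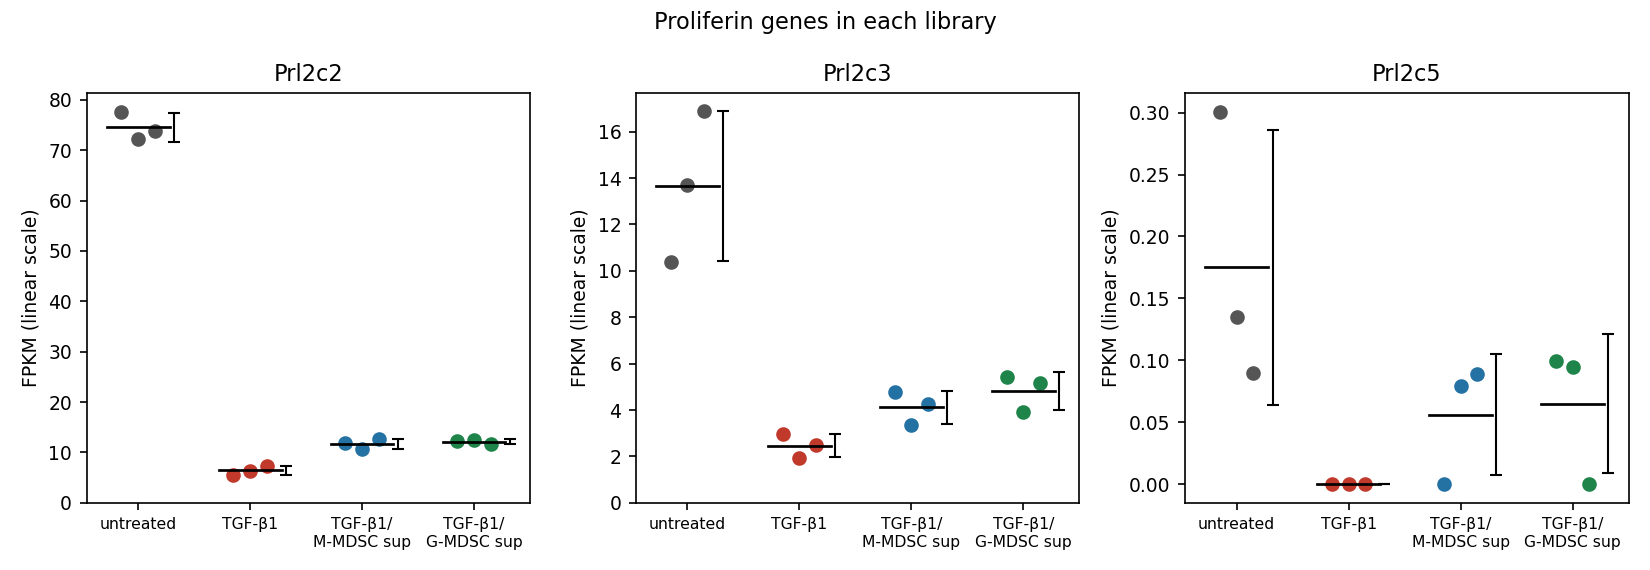
FPKM (linear axis, a panel per gene with its own range) of Prl2c2, Prl2c3 and Prl2c5 in each of the 12 libraries by group; points are libraries, horizontal lines the means and the bars beside them the SD (n = 3). Prl2c2 and Prl2c3 were highest in all untreated libraries and lowest in all libraries with TGF-β1 alone, and Prl2c5 stayed at or under 0.300 FPKM.

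The sum of the 3 members was 88.4 ± 2.39 FPKM (SD, n = 3) untreated and 8.88 ± 0.901 after TGF-β1, a 9.95-fold difference of the means. In the fit, the sum differed by -3.21 ± 0.093 (log2 fold change ± SE), Prl2c2 by -3.48 ± 0.107 and Prl2c3 by -2.40 ± 0.227. Counted from the most lowered, Prl2c2 stood at rank 32 and Prl2c3 at rank 111 of the 12016 genes, and 0.433% of them (52 genes) had a log2 fold change of -3 or lower. Groups that did not overlap were common in this comparison, with 30.0% of all genes tested lower and 16.6% higher without overlap. In these bulk samples, fewer cells that make proliferin and less proliferin mRNA per cell cannot be told apart.

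Prl2c5 was near the limit of detection. It had 33, 15 and 10 counts in the untreated libraries and 0, 0 and 0 after TGF-β1, so all untreated libraries were above all TGF-β1 libraries. Set against a floor of 3 counts per library, it was at least 6.61-fold higher untreated, where it stood at 0.175 ± 0.111 FPKM, and at least 4.10-fold higher without the first untreated library. With M-MDSC sup it had 0, 8 and 10 counts and with G-MDSC sup 12, 11 and 0, and both groups overlapped with TGF-β1 alone at 0.

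Both supernatants were accompanied by higher proliferin mRNA than TGF-β1 alone, far below the untreated level. Prl2c2 was at 11.96, 10.7 and 12.6 FPKM with M-MDSC sup and at 12.3, 12.5 and 11.6 FPKM with G-MDSC sup. Each of these 6 libraries was above the highest library of TGF-β1 alone, at 7.39, and under the lowest untreated one, at 72.1. Prl2c3 was at 4.76, 3.36 and 4.25 FPKM with M-MDSC sup and at 5.43, 3.90 and 5.16 FPKM with G-MDSC sup. These values too lay between the other groups without overlap, the nearest being 3.36 against 2.96 FPKM.

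The summed level was 15.9 ± 1.59 FPKM with M-MDSC sup and 17.0 ± 0.708 FPKM with G-MDSC sup (SD, n = 3), 1.79-fold and 1.92-fold that of TGF-β1 alone. In the fit the sum differed from TGF-β1 alone by 0.81 ± 0.087 and 0.91 ± 0.087 (log2 fold change ± SE). Prl2c2 differed by 0.85 ± 0.099 and 0.89 ± 0.099, and Prl2c3 by 0.71 ± 0.220 and 0.94 ± 0.220. As background, 13.4% of all genes tested were higher without overlap in the comparison with M-MDSC sup and 13.2% in that with G-MDSC sup. The 2 comparisons use the same 3 libraries of TGF-β1 alone, so their values are not independent.

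Set on the linear FPKM scale of the drop, the levels with the supernatants were a small part of the way back to the untreated level. This part depends on the scale. On the log2 scale the sum differed from TGF-β1 alone by 0.81 and 0.91, beside -3.21 for TGF-β1 against untreated. The sum stood at 18.02% of the untreated mean with M-MDSC sup and at 19.3% with G-MDSC sup, against 10.1% for TGF-β1 alone. The part of the drop regained was 8.86 ± 1.996% and 10.3 ± 0.891% (SD over the 3 supernatant libraries, with the other group means held fixed). For Prl2c2 it was 7.82% and 8.43%, and for Prl2c3 14.8% and 21.1%, the latter with SDs of 6.35 and 7.28 percentage points.

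**Figure D2:**
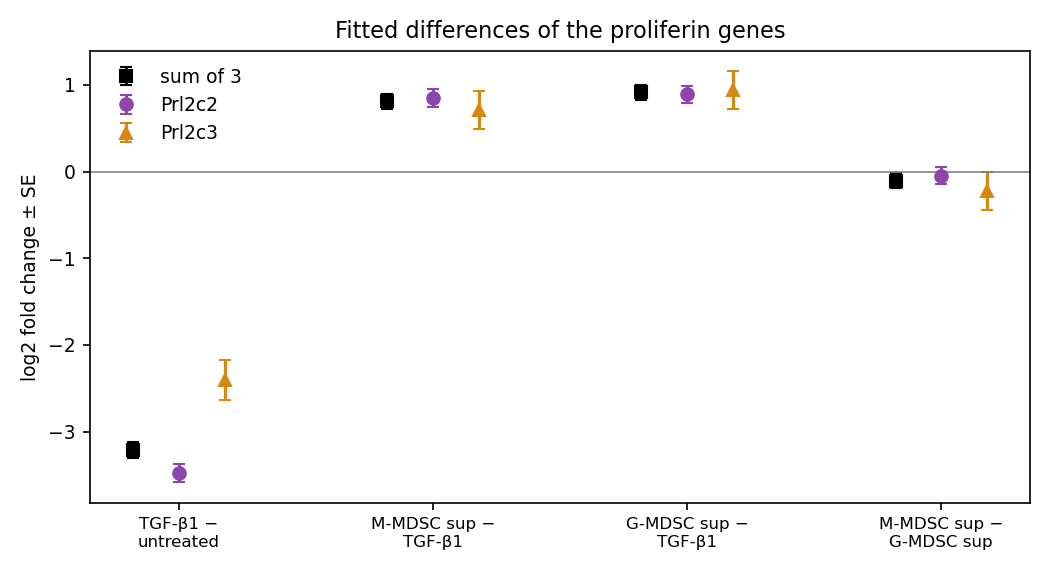
Log2 fold change (y axis) of the summed proliferin genes, Prl2c2 and Prl2c3 in each of the 4 comparisons, with the SE of the edgeR fit as bars. The sum was at -3.21 for TGF-β1 against untreated and at 0.81 and 0.91 for the supernatants against TGF-β1 alone, and at -0.10 for M-MDSC against G-MDSC sup.

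The members had similar levels with M-MDSC and G-MDSC sup. The libraries of both groups overlapped for Prl2c2 and for Prl2c3, while 6.03% of all genes tested were lower and 5.97% higher without overlap. The sum differed by -0.10 ± 0.086 (M-MDSC against G-MDSC, log2 fold change ± SE). Prl2c2 differed by -0.046 ± 0.098 and Prl2c3 by -0.22 ± 0.217. Between these groups 0.125% of all genes tested (15) passed an adjusted p-value under 0.05. The order of the summed levels was thus untreated, then G-MDSC and M-MDSC sup, whose order was within their spread, then TGF-β1 alone.

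**Figure D3:**
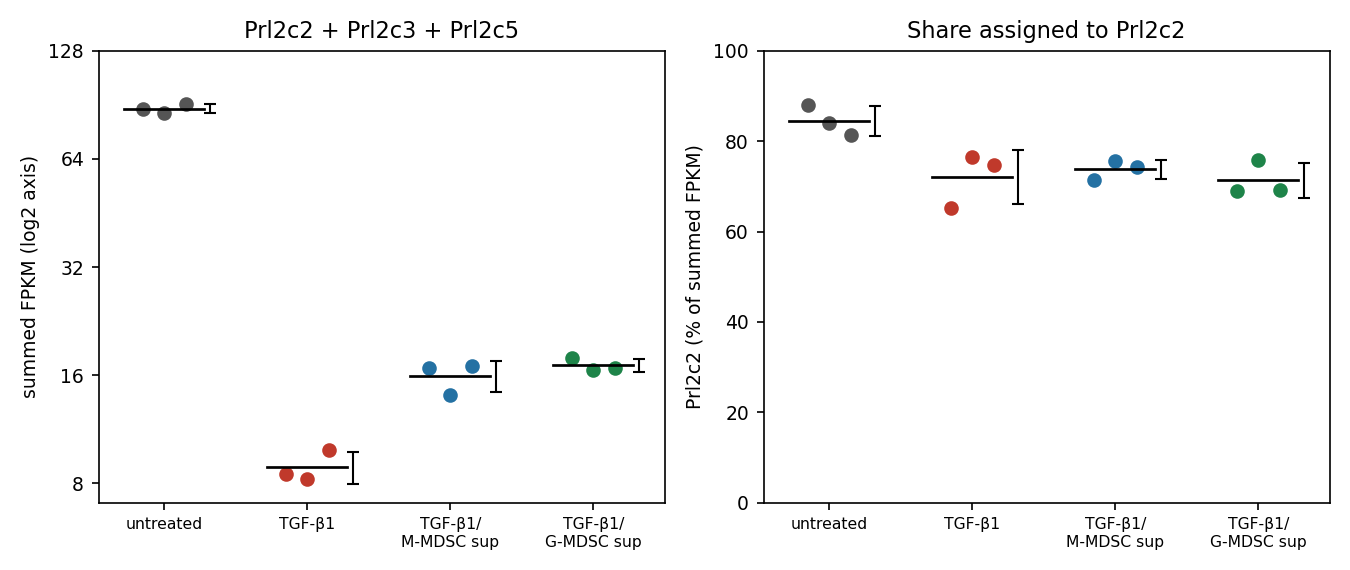
Left, the summed FPKM of the 3 genes (log2 axis) and right, the percentage of that sum assigned to Prl2c2, in each library by group; points are libraries, lines the means and bars the SD (n = 3). The sum ran from 8.22 FPKM in a TGF-β1 library to 90.8 FPKM in an untreated one, and the Prl2c2 share was 81.3% to 87.9% untreated and 65.3% to 76.5% in the other libraries.

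The composition of the sum also shifted. Prl2c2 made up 87.9%, 83.9% and 81.3% of the summed FPKM in the untreated libraries and 65.3%, 76.5% and 74.6% after TGF-β1, and no library of TGF-β1 alone reached the untreated range. With M-MDSC sup the share was 71.5%, 75.6% and 74.4%, and with G-MDSC sup 69.0%, 75.8% and 69.2%, within or close to the range of TGF-β1 alone. The mean ratio of Prl2c2 to Prl2c3 was 5.70 ± 1.60 untreated, 2.69 ± 0.721 after TGF-β1, 2.88 ± 0.338 with M-MDSC sup and 2.58 ± 0.550 with G-MDSC sup (SD, n = 3). The share depends on how reads common to both genes were assigned.

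Markers of other cells also differed with the supernatants. Kidney tubule markers (Kap, Umod, Slc34a1, Lrp2, Miox and Slc12a1) summed to 0.0174 to 0.0235 FPKM untreated and 0.0659 to 0.140 FPKM after TGF-β1. With M-MDSC sup they summed to 15.4, 11.98 and 78.1 FPKM and with G-MDSC sup to 42.9, 56.8 and 53.3 FPKM, and all 6 markers had counts in both groups. Within the M-MDSC group the summed proliferin level was 16.7, 14.1 and 17.0 FPKM in the same library order. Both sums were lowest in the second library and highest in the third. Within the G-MDSC group, where the proliferin sum was 17.9, 16.5 and 16.8 FPKM, the first library had the lowest kidney and the highest proliferin sum and the second the reverse. The part of these transcripts in the proliferin difference was not tested.

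Of 10 leukocyte markers, 6 had counts untreated, 7 after TGF-β1, 10 with M-MDSC and 9 with G-MDSC sup. Their summed level was 26.9 to 27.9 FPKM untreated, 13.6 to 15.8 after TGF-β1, 20.5 to 25.9 with M-MDSC sup and 25.8 to 29.3 with G-MDSC sup. Most of it was Cd14, a co-receptor for bacterial lipopolysaccharide, with means of 23.0, 13.8, 20.4 and 22.6 FPKM in the same order of groups. Lyz2, the lysozyme of macrophages and granulocytes, had means of 0.115, 0.0572, 1.54 and 1.87 FPKM, and S100a9, a neutrophil calcium-binding protein, 0, 0, 0.576 and 1.13. Ly6g had means of 1.83, 0.0681, 0.0619 and 0.125 FPKM, Ly6c2 1.71, 0.0450, 0.148 and 0.211, and Csf1r, the receptor for a macrophage growth factor, 0.631, 1.03, 1.08 and 1.19. The pan-leukocyte gene Ptprc reached at most 0.0157 FPKM in any library. The MSC surface marker Ly6a, known as Sca-1, was, like the proliferins, highest untreated and lowest with TGF-β1 alone, with means of 245, 16.2, 92.5 and 66.9 FPKM in the same order of groups. Unlike the proliferin sum, its mean was higher with M-MDSC sup than with G-MDSC sup, a difference that did not pass (0.47 ± 0.116, adjusted p = 0.277, edgeR). Ly6a fell with TGF-β1 (log2 fold change -3.86 ± 0.129, adjusted p = 5.15e-09, edgeR) and was higher with M-MDSC (2.49 ± 0.122, adjusted p = 2.38e-07) and G-MDSC sup (2.02 ± 0.120, adjusted p = 1.54e-06) than with TGF-β1 alone. The part of these changes in the proliferin difference was not tested.

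The rest of the prolactin family was nearly silent in these cells. Of 25 listed family genes outside the members, 24 were in the table under their symbol, Prl2c4 being a synonym of Prl2c3 in RefSeq, and none passed the filter on low values. No count was found for 11 of them, 4 had at most 9 counts in any library, and 9 reached 10 counts. The placental lactogen gene Prl3d2 was the highest, with 58 to 114 counts in the untreated libraries and a mean of 1.09 ± 0.342 FPKM, against 0.613 ± 0.168 after TGF-β1, 0.760 ± 0.139 with M-MDSC sup and 0.607 ± 0.196 with G-MDSC sup. Its paralog Prl3d3 had a mean of 0.538 ± 0.119 FPKM untreated and 0.322 ± 0.0824 after TGF-β1. The other 7 (Prl, the pituitary hormone prolactin, with Prl2a1, Prl3a1, Prl3d1, Prl7a1, Prl7d1 and Prl8a9) had means of at most 0.351 FPKM in any group.

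When the filter was dropped and 28622 genes were fitted, 0 of the 9 family genes passed an adjusted p-value under 0.05 in any of the 4 comparisons with edgeR, where 14.6%, 2.10%, 2.58% and 0.0419% of all genes did. These shares, like the counts that follow, stand in the order TGF-β1 against untreated, M-MDSC and G-MDSC sup against TGF-β1, and M-MDSC against G-MDSC sup. At an unadjusted p-value under 0.05 there were 3, 1, 1 and 1. The share of all genes at this looser threshold was not counted, here and for the genes below. Prl7d1, the proliferin-related protein, known to restrain vessel growth where proliferin promotes it, had a log2 fold change of -2.15 ± 0.737 with TGF-β1 (adjusted p = 0.0840). The untreated and TGF-β1 libraries of Prl7d1 did not overlap, with 17 to 45 and 4 to 11 counts. Of the genes that passed the filter, 30.0% were lower without overlap in this comparison. With M-MDSC and G-MDSC sup Prl7d1 was higher than with TGF-β1 alone by 1.63 ± 0.734 and 1.64 ± 0.733 (edgeR, adjusted p = 0.46 and 0.43). Its counts were 16 to 21 with M-MDSC sup, without overlap, and 4 to 32 with G-MDSC sup, which overlapped.

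The receptors were present at levels that changed little. Igf2r, the mannose 6-phosphate receptor to which proliferin binds, had means of 15.8 FPKM untreated, 14.3 after TGF-β1, 12.2 with M-MDSC sup and 12.3 with G-MDSC sup. M6pr, the cation-dependent receptor for the same sugar, had 31.3, 31.3, 34.3 and 34.5 FPKM, and Ghr, the growth hormone receptor, 10.7, 9.35, 9.48 and 9.22 FPKM. Of these 3 receptors 0 passed an adjusted p-value under 0.05 in any comparison with edgeR, against 34.0%, 4.78%, 5.56% and 0.125% of all genes in the order of comparisons given above, and 1, 2, 2 and 0 had an unadjusted p-value under 0.05. M6pr passed with DESeq2 against TGF-β1 for both supernatants (log2 fold change 0.12 in each). With limma on log2(FPKM + 1), Ghr passed for TGF-β1 against untreated (-0.18) and M6pr for G-MDSC sup against TGF-β1 (0.13), as they did on log2(FPKM + 0.1). Prlr, the prolactin receptor, had at most 22 counts and was not tested.

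Genes of the growth factor, AP-1 and glucocorticoid lists moved with TGF-β1 in both directions. Whether they act on the proliferin genes in these cells was not tested. In the list of growth factors and receptors, 5 of 9 tested genes rose and 3 fell with TGF-β1 (edgeR, adjusted p-value under 0.05), with a median log2 fold change of 0.52 against 0.00 for all genes tested. That is 8 of 9 called, where 34.0% of all genes were. Pdgfa, a platelet-derived growth factor chain, rose by 1.70 ± 0.163 (log2 fold change ± SE, adjusted p = 1.42e-05), and Hbegf, a ligand of the EGF receptor, by 1.41 ± 0.045 (adjusted p = 3.92e-09). Pdgfra, the receptor for Pdgfa, fell by 1.44 ± 0.082 on the log2 scale (adjusted p = 2.69e-07), and Fgfr1, a receptor for fibroblast growth factors, rose by 0.68 ± 0.047 (adjusted p = 1.17e-06).

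In the AP-1 list, 3 of 8 tested genes rose with TGF-β1 and 4 fell, where 16.1% of all genes rose and 17.9% fell, with a median log2 fold change of -0.02. Fos, the founding member, fell by 2.09 ± 0.186 on the log2 scale (adjusted p = 8.17e-06) to a mean of 0.887 FPKM, and Fosl2 fell by 1.03 ± 0.083 (adjusted p = 3.89e-06). Junb rose by 1.52 ± 0.048 (adjusted p = 3.65e-09) to 110 FPKM, and Fosb rose by 1.41 ± 0.091 (adjusted p = 6.96e-07). The list thus held genes at opposite ends.

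In the glucocorticoid list, which holds the receptor and genes it is known to induce, 1 of 8 tested genes rose with TGF-β1 and 3 fell, where 16.1% of all genes rose and 17.9% fell, with a median of -0.03. Per1 (-0.81 ± 0.139, adjusted p = 9.46e-04), Zfp36 (-0.78 ± 0.1004, adjusted p = 1.28e-04) and Dusp1 (-0.66 ± 0.068, adjusted p = 2.39e-05) fell. Tsc22d3, also called GILZ, rose by 0.78 ± 0.205 (adjusted p = 0.0128), a call that was lost without the first untreated library (0.64). The receptor gene Nr3c1 did not pass (-0.15 ± 0.175, adjusted p = 0.569). Per1, Zfp36 and Dusp1 are also immediate early genes that serum and stress induce.

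**Figure D4:**
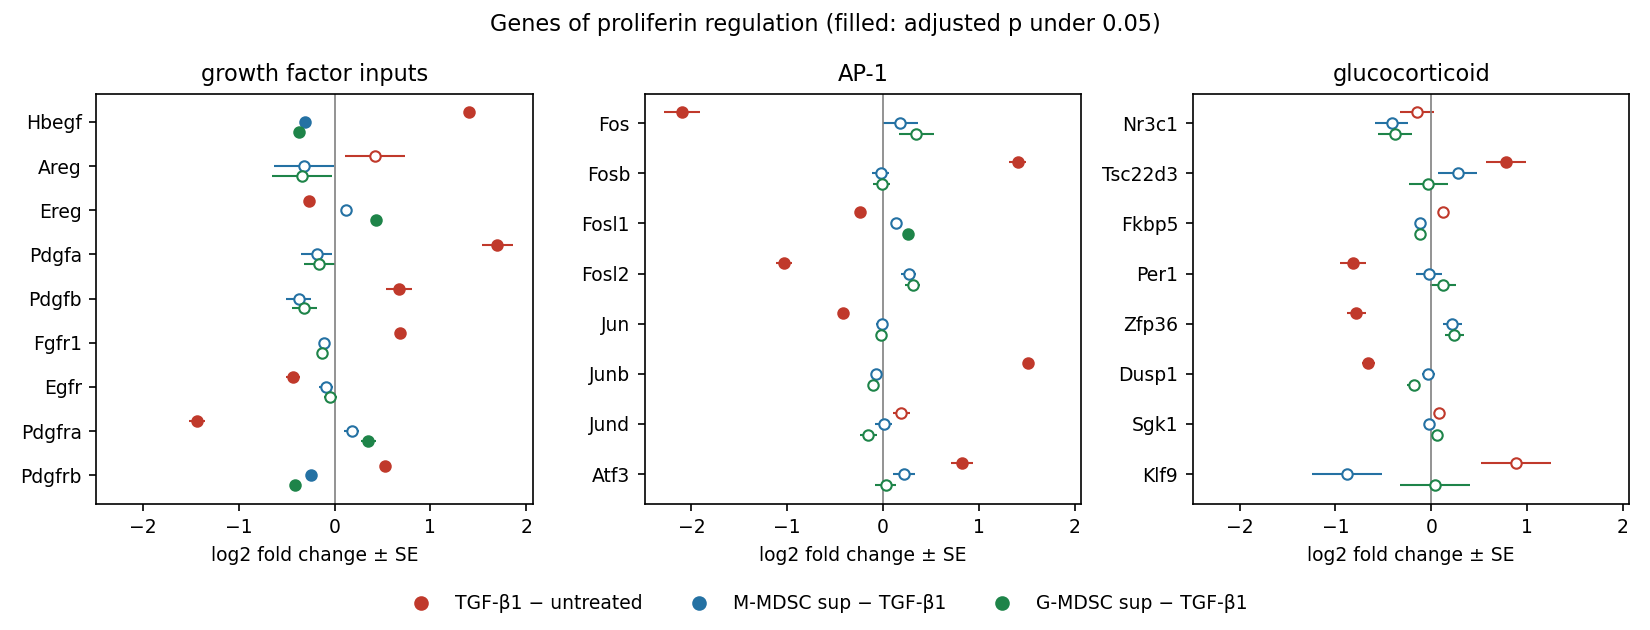
Log2 fold change with SE (x axis) of the tested genes of the growth factor, AP-1 and glucocorticoid lists, for TGF-β1 against untreated (red) and for M-MDSC (blue) and G-MDSC sup (green) against TGF-β1; filled points had an adjusted p-value under 0.05. With TGF-β1, 19 of 25 genes passed, in both directions, and with the supernatants 2 and 5 did.

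With the supernatants, fewer genes of these lists passed than with TGF-β1. With M-MDSC sup 2 of the 25 tested genes passed, where 4.78% of all genes did, Hbegf (-0.31 ± 0.044, adjusted p = 0.00203) and Pdgfrb, the receptor for the other platelet-derived growth factor chain (-0.24 ± 0.045, adjusted p = 0.0104), both lower than with TGF-β1 alone. The call of Pdgfrb was lost when the other groups were left out of the fit (-0.23). With G-MDSC sup 5 of the 25 passed, where 5.56% of all genes did. Ereg, a further EGF receptor ligand, was higher (0.44 ± 0.053, adjusted p = 6.13e-04), Pdgfrb (-0.41 ± 0.045, adjusted p = 2.69e-04) and Hbegf (-0.37 ± 0.044, adjusted p = 5.24e-04) were lower, and the AP-1 gene Fosl1 was higher (0.26 ± 0.048, adjusted p = 0.00844). Pdgfra was higher as well (0.35 ± 0.081, adjusted p = 0.0296), a call that was lost without any 1 of 4 libraries, the second or the third of TGF-β1 alone or the first or the third with G-MDSC sup (0.29 to 0.36). The Pdgfra call was also lost when the other groups were left out of the fit (0.36). The glucocorticoid list had 0 genes that passed with either supernatant by edgeR, and 3 with each at an unadjusted p-value under 0.05.

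Between M-MDSC and G-MDSC sup 0 of the 25 genes passed with edgeR, and 4 had an unadjusted p-value under 0.05. Ereg passed with DESeq2 (-0.31) and with limma on log2(FPKM + 1) (-0.30), lower with M-MDSC sup. Klf9 passed without the second library with M-MDSC sup (-1.70).

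Other regulators of vessel growth, the process proliferin is best known for, were called in both directions. With TGF-β1, 5 of 9 tested genes rose and 4 fell, all 9 passing where 34.0% of all genes did. Vegfa, the main vascular endothelial growth factor, rose by 2.35 ± 0.050 (log2 fold change ± SE, adjusted p = 4.99e-10) to 153 FPKM, and Vegfc by 1.76 ± 0.096 (adjusted p = 1.99e-07). Vegfd fell by 2.32 ± 0.104 on the log2 scale (adjusted p = 4.47e-08), and Thbs2, which codes for the vessel-inhibiting thrombospondin 2, fell by 1.59 ± 0.106 (adjusted p = 8.54e-07). Thbs2 was higher than with TGF-β1 alone with M-MDSC (0.81 ± 0.104, adjusted p = 9.12e-04) and G-MDSC sup (0.73 ± 0.104, adjusted p = 0.00178).

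In all, 2 genes of this list were higher and 2 lower with M-MDSC sup, and 1 was higher and 2 lower with G-MDSC sup, 4 and 3 of 9 where 4.78% and 5.56% of all genes were called. Thbs1 (-0.37 ± 0.057, adjusted p = 0.00278) and Serpinf1, a further inhibitor of vessel growth (-0.35 ± 0.059, adjusted p = 0.00527), were lower with G-MDSC sup. With M-MDSC sup the calls of Vegfc (0.39 ± 0.093, adjusted p = 0.0373), Serpinf1 (-0.26 ± 0.059, adjusted p = 0.0302) and Thbs1 (-0.25 ± 0.056, adjusted p = 0.0279) were lost when single libraries were left out. Vegfc no longer passed without any of the 6 libraries (0.30 to 0.44), Serpinf1 without any but the second with M-MDSC sup (-0.28 to -0.22), and Thbs1 without any but the third of TGF-β1 alone (-0.27 to -0.24). Each of these calls was also lost with a replicate block in the fit (0.39, -0.26 and -0.25) and with further alternatives.

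Since proliferin takes its name from growing cells, cell cycle genes were also counted. With TGF-β1, 1 of 14 tested genes rose and 5 fell, 6 of 14 where 34.0% of all genes were called, with a median of -0.10. Ccnd1, the G1 cyclin that growth factors induce, fell by 0.48 ± 0.031 on the log2 scale (adjusted p = 7.24e-07), Ccna2 by 0.27 ± 0.059 (adjusted p = 0.00477) and Mcm5, a subunit of the replicative helicase, by 0.23 ± 0.040 (adjusted p = 9.85e-04). Mki67 stayed at -0.035 ± 0.109 (adjusted p = 0.843). With M-MDSC sup only Mcm6 of the 14 passed (0.17 ± 0.030, adjusted p = 0.00994), where 4.78% of all genes did. The Mcm6 call was lost when the other groups were left out of the fit (0.18). With G-MDSC sup 0 passed by edgeR, where 5.56% of all genes did, and 5 had an unadjusted p-value under 0.05. The part of these shifts in the proliferin difference was not tested.

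The known targets of TGF-β1 went the opposite way. Of 10 tested, 9 rose with TGF-β1 and 0 fell, with a median log2 fold change of 1.05, where 16.1% of all genes rose and 17.9% fell. Ccn2, the connective tissue growth factor, rose by 2.53 ± 0.055 (adjusted p = 5.63e-10) and Col3a1 by 1.60 ± 0.038 (adjusted p = 7.24e-10). Skil, which codes for a repressor of SMAD factors, rose by 1.53 ± 0.405 (adjusted p = 0.0136), a call lost without the second library of TGF-β1 alone (1.23) and when the other groups were left out of the fit (1.53). With M-MDSC sup 4 of the 10 were lower than with TGF-β1 alone and with G-MDSC sup 6, against 1.95% and 2.46% of all genes. Tagln, a smooth muscle actin-binding protein (-0.55 ± 0.082, adjusted p = 0.00252, and -0.55 ± 0.082, adjusted p = 0.00243), and Acta2, smooth muscle actin (-0.44 ± 0.053, adjusted p = 5.87e-04, and -0.51 ± 0.053, adjusted p = 1.70e-04), were among them for the M-MDSC and the G-MDSC sup. Between the supernatants 0 of the 10 passed with edgeR, and 0 had an unadjusted p-value under 0.05.

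Genes whose profile was most like that of the proliferins were ranked by Pearson correlation of log2(FPKM + 1) with the summed level over the 12 libraries. The correlation follows the same group differences in all of these genes and is a description. Of 12014 genes compared, 783 had r above 0.9, and Prl2c2 and Prl2c3 had r = 0.955 with each other. The 5 highest were C1ra (0.998), Bmper (0.996), Hmga2 (0.995), Id2 (0.995) and Ptpn22 (0.992). C1ra, which codes for the complement protease C1r, had means of 9.88 ± 0.416 FPKM untreated, 1.29 ± 0.0438 after TGF-β1, 2.54 ± 0.226 with M-MDSC sup and 2.54 ± 0.192 with G-MDSC sup. Id2, an inhibitor of helix-loop-helix factors, had 15.8 ± 0.474, 4.65 ± 0.0941, 6.25 ± 0.631 and 6.89 ± 0.569 FPKM in the same order. Bmper, a secreted binder of bone morphogenetic proteins, had 12.5 ± 0.652, 4.64 ± 0.273, 5.79 ± 0.338 and 5.86 ± 0.273 FPKM.

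The 5 lowest were Lox (-0.996), Gjb2 (-0.996), C1qtnf3 (-0.995), Hbegf (-0.995) and Copa (-0.995). Lox, the enzyme that cross-links collagen, had means of 252 ± 4.27 FPKM untreated, 560 ± 23.7 after TGF-β1, 466 ± 16.8 with M-MDSC sup and 474 ± 5.70 with G-MDSC sup. C1qtnf3, a secreted C1q-like protein, had 2.53 ± 0.317, 47.3 ± 1.53, 28.4 ± 1.79 and 24.1 ± 1.56 FPKM. The ranking uses the group differences, so the fall or rise of these genes is a description here, and the tests given for Hbegf in the growth factor list do not support the likeness.

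**Figure D5:**
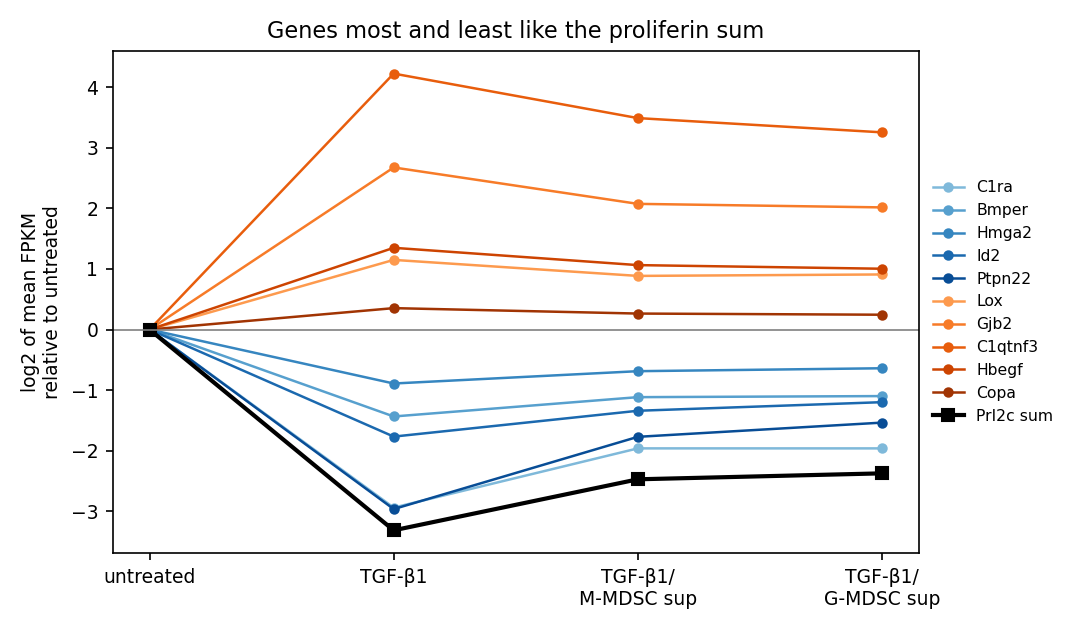
Log2 of the mean FPKM relative to the untreated mean (y axis) in the 4 groups (x axis) for the proliferin sum (black squares), the 5 genes with the highest correlation (blue) and the 5 with the lowest (orange). All fall or rise most with TGF-β1 alone and lie between it and the untreated level with either supernatant, as the ranking itself requires.

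The genomic neighbours of the proliferins were called about as often as genes at large. Within 500000 bp on each side of the members lay 48 other genes, of which 10 were tested, 5 of them protein coding. With TGF-β1, 3 of the 10 fell and 1 rose, 4 of 10 where 34.0% of all genes were called. Nid1, the basement membrane protein nidogen 1, fell by 1.70 ± 0.059 on the log2 scale (adjusted p = 7.06e-09), Gpr137b by 0.74 ± 0.112 (adjusted p = 4.51e-04) and Lgals8, a galectin, by 0.35 ± 0.065 (adjusted p = 0.00179), while Heatr1 rose by 0.39 ± 0.067 (adjusted p = 0.00101). Of the 10 neighbours only Lgals8 passed with the supernatants, where 4.78% (M-MDSC) and 5.56% (G-MDSC) of all genes did. Lgals8 was higher than with TGF-β1 alone (0.56 ± 0.066 with M-MDSC, adjusted p = 4.23e-04, and 0.42 ± 0.065 with G-MDSC, adjusted p = 0.00311). Nid1, which lies at chr13:13437551-13512269 beyond Prl2c5, did not pass with either supernatant (-0.22 ± 0.058, adjusted p = 0.0647, and -0.17 ± 0.058, adjusted p = 0.150).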

How the data were processed

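The authors sequenced poly(A) RNA of 12 MSC libraries and deposited a table with raw counts and FPKM per gene and library, in which a count of 0 has an FPKM of 0.0001, read here as 0. The submitters' processing notes name cutadapt 1.9, HISAT2 2.0.4, StringTie 1.3.4d, edgeR and DESeq2. The counter and its handling of reads with several matches are not given in the sources used here, and 44.3% of deposited non-zero counts up to 12 were multiples of 4.

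Groups came from the labels. Counts of the 12016 genes that reached an FPKM of 1 in 3 or more libraries were scaled by TMM (factors 0.978 to 1.03) and fitted with edgeR 4.0.16 (R 4.3.3), in a model with a term for each of the 4 groups, by the two-sided quasi-likelihood F test and Benjamini-Hochberg adjustment over all genes tested. For the sum, the 3 rows were replaced by their total. On simulated data (TGF-β1 against untreated, 12016 genes), 161 of 200 genes changed 2-fold were recovered, with 8 false calls. Alternatives used DESeq2 1.42.0, limma 3.58.1 on log2(FPKM + 1) and log2(FPKM + 0.1), other scaling, no filter, only the groups compared, a replicate block, counts divided by 4, and each library left out in turn. Transcripts were GENCODE M21, aligned with Biopython 1.88 and blastn 2.17.0, and promoters were RefSeq.

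The members and gene lists were chosen with earlier results of these data known. Named genes were the members, family genes with at least 10 counts in any library, the receptors, up to 4 called genes per list with the largest change, and the 5 genes most and least alike the sum. Gm7040, Ly6a, the leukocyte and kidney markers, Nr3c1, Mki67, Klf9 and the neighbours' values are given outside that rule. A result that the rule would name is not reported here.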

Additional observations from a re-analysis of the deposited data

How the results depend on the processing

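The direction of the summed proliferin level was kept under all 14 alternatives of each comparison, and its log2 fold change ran from -3.31 to -3.15 for TGF-β1 against untreated, 0.75 to 0.91 for M-MDSC and 0.86 to 1.01 for G-MDSC supernatant against TGF-β1, and -0.15 to -0.020 for M-MDSC against G-MDSC supernatant. For Prl2c2 and Prl2c3 it was kept in the first 3 comparisons, and the value that moved by more than the spread was that of Prl2c3 for TGF-β1 against untreated with limma on log2(FPKM + 1), -2.07. The number of growth factor, AP-1 and glucocorticoid genes called for M-MDSC supernatant against TGF-β1 was 2. It was 1 when only the groups compared were fitted, and 3 with DESeq2 and without the second M-MDSC library. For M-MDSC against G-MDSC supernatant it was 0, and 1 with DESeq2, with limma on log2(FPKM + 1) and without the second M-MDSC library, so leaving out a library gave 0 to 1; the cause was not tested. Of the calls of single named genes, 61 were lost over all alternatives, 12 of them when only the groups compared were fitted, the receptors Ghr and M6pr gained 6, and no called value changed sign. The Prl2c2 difference between the supernatants, which is within their spread, ran from -0.098 to 0.018. Same replicate numbers did not pair the libraries: their deviations had a mean correlation of -0.0038 over 18 pairs, and 2 of 12 libraries correlated best with their own number. With the replicate block the sum differed by -3.21, 0.81, 0.92 and -0.11 in the 4 comparisons. The counts of called growth factor, AP-1 and glucocorticoid genes were then 19, 2, 5 and 0, the same as without it. The block ended 5 calls of single genes, those of Cdk1 with TGF-β1 and of Lyz2, Vegfc, Serpinf1 and Thbs1 with M-MDSC supernatant. The depth limits Prl2c5, whose counts were 0 to 33.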
